A study of Mus musculus with 12 samples.

Results

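The genes described here are 10 genes of neutrophils, S100a8, S100a9, Il1b, Csf3r, Cd177, Ngp, Ltf, Stfa2l1, Slfn4 and Mpo, taken by name out of 18194 genes measured on each array. Each of the 10 was read by 1 probe set paired with that gene alone, and 1 further probe set is shared by Slfn4 and Slfn3. They were chosen by name with results of these same arrays known: the bleomycin differences of Cd177 in wild-type lungs and of Stfa2l1, Slfn4 and S100a9 in knockout lungs, and the differences of Stfa2l1 and S100a9 between genotypes after saline. All values of the 10 are therefore given as a description, without p-values.

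The samples were whole lungs of C57BL/6 mice, knockout for FIZZ2 (gene symbol Retnlb, encoding the secreted resistin-like molecule beta) or wild type, collected on day 21 after bleomycin or saline had been given into the trachea. Bleomycin breaks DNA and, given into the airways, causes lung injury followed by scarring, a common model of pulmonary fibrosis. The 4 groups were knockout bleomycin, knockout saline, wild-type bleomycin and wild-type saline, with 3 arrays each. Lungs had been perfused with PBS, which removes much but not necessarily all of the blood. The labels do not say that replicates were separate animals, nor how the knockout line was made, so p-values measure the spread between these arrays.

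The values are log2 RMA signals, so a difference of 1 is a doubling, and levels of different genes are not compared. A difference passed, or was called, where its limma p, adjusted over all 18194 genes, was under 0.05. The medians of the 12 arrays lay between 5.58 and 5.68, and arrays of a group correlated at 0.988 to 0.997. The lung epithelial genes Sftpc, Scgb1a1 and Ager had values of 13.61 or more on every array. Retnlb itself was near the bottom of the scale. It lay at 3.49 to 3.72 in knockout bleomycin, 3.54 to 3.83 in knockout saline, 3.80 to 4.13 in wild-type bleomycin and 3.57 to 3.84 in wild-type saline. The saline groups overlapped, so this gene does not check their genotype labels, and where the probes lie relative to the deletion is not given in the sources used here.

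Neutrophils are short-lived phagocytes made in the bone marrow under the growth factor G-CSF. Their granule proteins are laid down in order as the cell matures: primary granule enzymes such as myeloperoxidase first, then secondary granule proteins such as lactoferrin, then gelatinase, while transcripts such as S100a8, S100a9 and Csf3r stay abundant in the mature cell that circulates and is held in lung capillaries. The 10 genes sample these stages. In whole-tissue RNA, fewer cells of a type and less RNA per cell cannot be told apart.

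The 10 genes did not move as a block. S100a8, S100a9, Csf3r, Slfn4, Stfa2l1 and Il1b had their highest group mean in knockout lungs given saline, and the first 5 of these genes were lower after bleomycin in knockout lungs, with no overlap between arrays. Cd177 differed from these, being highest in wild-type lungs given bleomycin and lowest in wild-type lungs given saline. Ngp had its highest mean in knockout saline too, through 1 array only, Ltf spread widely within every group, and Mpo was dim throughout.

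**Figure D1:**
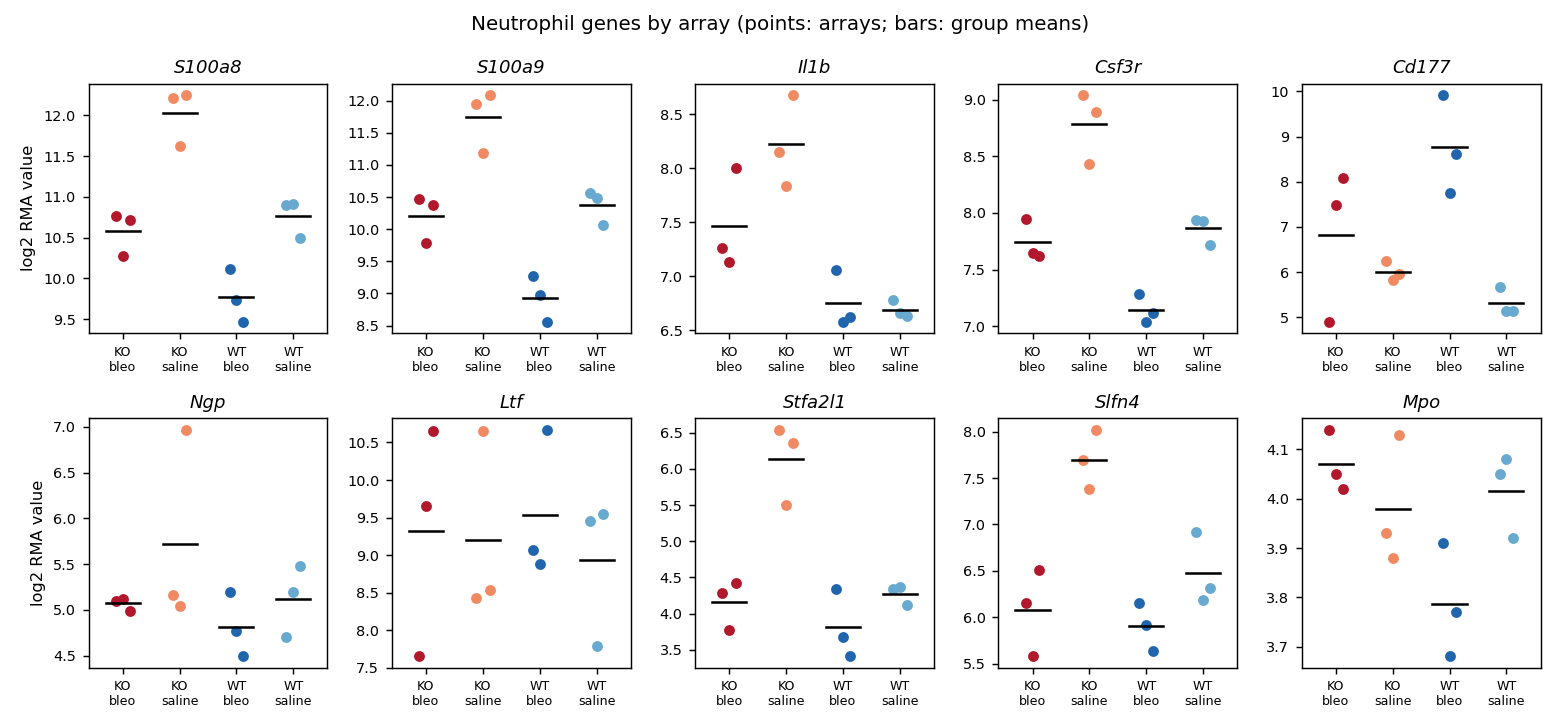
Log2 RMA value (y axis) of each of the 10 genes on the 12 arrays, by group (x axis; KO, knockout; WT, wild type; bleo, bleomycin). Points are arrays and bars are group means of 3. The knockout saline arrays of S100a8 lie between 11.62 and 12.25, above all 9 others, whereas Cd177 reaches 9.92 in wild-type bleomycin.

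Promoters are shown for 3 genes that were highest in knockout saline and for Cd177, which was not, to let the starts of genes with unlike patterns be read side by side. Each sequence runs 5′ to 3′ from 250 bases before to 50 bases after the annotated start, from RefSeq on GRCm38.p6, where all 10 genes were matched. Capitals mark matches on either strand to GAGGAA (the core bound by PU.1 and other ETS factors, TTCCTC on the opposite strand), TTGCNNAA (a C/EBP-type element) or TATAAA (the TATA box).
S100a8, chr3:90668821-90669120, plus strand: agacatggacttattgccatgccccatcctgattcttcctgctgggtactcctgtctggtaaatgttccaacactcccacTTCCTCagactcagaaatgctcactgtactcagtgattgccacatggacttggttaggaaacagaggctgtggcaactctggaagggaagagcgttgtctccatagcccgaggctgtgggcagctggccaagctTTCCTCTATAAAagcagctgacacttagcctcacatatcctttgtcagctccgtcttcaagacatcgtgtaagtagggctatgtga
S100a9, chr3:90695672-90695971, minus strand: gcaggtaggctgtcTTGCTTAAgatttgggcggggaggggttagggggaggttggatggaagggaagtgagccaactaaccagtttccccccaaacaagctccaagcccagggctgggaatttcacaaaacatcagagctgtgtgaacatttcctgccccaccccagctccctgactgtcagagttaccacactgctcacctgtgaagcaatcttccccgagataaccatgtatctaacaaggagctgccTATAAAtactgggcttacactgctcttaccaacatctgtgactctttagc
Stfa2l1, chr16:36156561-36156860, plus strand: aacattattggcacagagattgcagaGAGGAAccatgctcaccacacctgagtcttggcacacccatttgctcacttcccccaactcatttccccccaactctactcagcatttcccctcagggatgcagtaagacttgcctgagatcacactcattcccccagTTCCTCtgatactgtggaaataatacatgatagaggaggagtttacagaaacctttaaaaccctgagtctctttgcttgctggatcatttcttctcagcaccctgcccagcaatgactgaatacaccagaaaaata
Cd177, chr7:24760262-24760561, minus strand: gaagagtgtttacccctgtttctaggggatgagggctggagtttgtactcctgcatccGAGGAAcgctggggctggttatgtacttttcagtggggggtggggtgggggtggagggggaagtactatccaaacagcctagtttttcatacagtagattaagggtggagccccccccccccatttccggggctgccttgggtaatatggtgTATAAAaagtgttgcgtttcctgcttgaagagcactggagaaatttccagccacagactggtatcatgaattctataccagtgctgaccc

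S100a8 and S100a9 start 26.6 kb apart on chromosome 3, on opposite strands. GAGGAA was found in 6 of the 10 promoters (Cd177, Csf3r, Ltf, Mpo, S100a8 and Stfa2l1), against 28.3% of all 32851 promoters. TTGCNNAA was found in 3 (Ltf, Ngp and S100a9), against 10.8% of all. TATAAA was found in 5 (Cd177, Il1b, S100a8, S100a9 and Slfn4), against 13.6% of all. Its place differed: bases −30 to −25 from the annotated start in S100a8 and −40 to −35 in Cd177. In S100a9 it lay at bases 0 to 5, not upstream of the annotated start. A match describes the letters in the window and is no evidence of binding. GAGGAA and TATAAA each occur both in S100a8 and in Cd177, so neither motif separates the 2 patterns here.

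S100a8 and S100a9 encode the 2 chains of calprotectin, a calcium- and zinc-binding protein that makes up much of the neutrophil cytosol. S100a8 had values of 10.76, 10.27 and 10.72 in knockout bleomycin, 12.21, 11.62 and 12.25 in knockout saline, 10.12, 9.73 and 9.47 in wild-type bleomycin, and 10.90, 10.91 and 10.50 in wild-type saline. S100a9 had values of 10.47, 9.79 and 10.37 in knockout bleomycin, 11.95, 11.19 and 12.09 in knockout saline, 9.27, 8.98 and 8.56 in wild-type bleomycin, and 10.57, 10.49 and 10.06 in wild-type saline. For both genes the order of groups was the same: knockout saline highest, wild-type bleomycin lowest, each clear of all other arrays, with knockout bleomycin and wild-type saline overlapping between them.

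The S100a9 difference between bleomycin and saline was −1.53 ± 0.25 (log2, SE) in knockout lungs and −1.43 ± 0.25 in wild-type lungs. That of S100a8 was −1.44 ± 0.20 in knockout and −1.0 ± 0.20 in wild type. The bleomycin differences of S100a9 were thus within their error of each other in the 2 genotypes (difference of responses −0.10 ± 0.35), at levels that differed. Knockout lungs were above wild-type lungs after both treatments: S100a9 by 1.37 ± 0.25 after saline and by 1.27 ± 0.25 after bleomycin, and S100a8 by 1.26 ± 0.20 after saline and by 0.81 ± 0.20 after bleomycin.

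Over the 12 arrays S100a8 and S100a9 correlated at r = 0.993, and among 12520 genes with a mean of at least 5 each was the gene most like the other. The 5 genes outside the 10 that followed S100a8 most closely were Mmp9 (r = 0.979), Ifitm6 (0.973), H2-Q10 (0.972), Trem3 (0.963) and Bmx (0.955). These r values are a description over 12 arrays that share 4 groups.

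Csf3r encodes the receptor for G-CSF, which drives neutrophil production and survival. Csf3r had values of 7.95, 7.65 and 7.62 in knockout bleomycin, 9.04, 8.43 and 8.89 in knockout saline, 7.28, 7.04 and 7.12 in wild-type bleomycin, and 7.94, 7.93 and 7.72 in wild-type saline. It followed the calprotectin genes (r = 0.983 with S100a8), with the same highest and lowest groups and the same overlap between the other two. The bleomycin difference was −1.05 ± 0.14 in knockout and −0.71 ± 0.14 in wild type. The knockout excess over wild type was 0.93 ± 0.14 after saline and 0.59 ± 0.14 after bleomycin. Csf3, the gene for G-CSF itself, was dim, between 4.26 and 4.78 on all arrays, and its wild-type response did not pass (limma, adjusted p = 0.398).

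Stfa2l1 belongs to the stefin A cluster of cysteine protease inhibitors, which in mice is expressed in neutrophils. Stfa2l1 had values of 4.28, 3.77 and 4.43 in knockout bleomycin, 6.54, 5.50 and 6.35 in knockout saline, 4.34, 3.68 and 3.41 in wild-type bleomycin, and 4.34, 4.37 and 4.12 in wild-type saline. Only the 3 knockout saline arrays exceeded 4.43, and the other 3 groups lay close together near the low end of the scale, where RMA compresses differences. Its bleomycin difference was −1.97 ± 0.27 in knockout (3.91-fold lower) and −0.46 ± 0.27 in wild type, with overlapping arrays in wild type. Of the 10 genes it was the only one past the threshold for the difference of responses, −1.51 ± 0.38, a call lost without any 1 of the arrays other than knockout bleomycin replicate 3, knockout saline replicate 2 and wild-type bleomycin replicate 3. Stfa2l1 and the deleted gene Retnlb both lie on chromosome 16. Whether that position bears on its level was not tested. Of 12 other stefin A genes listed, 2 were measured alone, Stfa3 and Csta1, both with group means of 3.02 or less, and neither passed in any of the 5 contrasts (limma; 0 at an unadjusted p under 0.05).

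Slfn4 is a Schlafen gene induced in mouse myeloid cells by interferon and Toll-like receptor signals. Slfn4 had values of 6.15, 5.58 and 6.51 in knockout bleomycin, 7.69, 7.38 and 8.02 in knockout saline, 6.15, 5.92 and 5.64 in wild-type bleomycin, and 6.92, 6.19 and 6.32 in wild-type saline. The knockout saline arrays were the highest, the other groups lay closer together, and the 2 bleomycin groups overlapped. The bleomycin difference was −1.62 ± 0.24 in knockout and −0.58 ± 0.24 in wild type. The wild-type difference did not pass in the main fit but did with array weights, at −0.99. Knockout exceeded wild type by 1.22 ± 0.24 after saline, without overlap, and by 0.18 ± 0.24 after bleomycin. The saline difference did not pass in the main fit. It did under some alternatives, among them array weights, the replicate block and leaving out wild-type saline replicate 1. The probe set shared with Slfn3 was dim, at 3.34, 3.34 and 3.55 in knockout bleomycin, 3.98, 3.67 and 4.07 in knockout saline, 3.77, 3.30 and 3.47 in wild-type bleomycin and 3.36, 3.50 and 3.59 in wild-type saline. It too had its highest mean in knockout saline, although knockout saline and wild-type bleomycin overlapped.

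Slfn4 was set beside the rest of its family and beside interferon-stimulated genes. For these lists and those below, 3.26% of all genes were called with bleomycin in knockout and 27.7% in wild type. Between genotypes the share called was 0.489% after saline and 15.4% after bleomycin. Among 7 other Schlafen genes measured of 8 listed, 2 rose and 1 fell with bleomycin in wild-type lungs, and 1 fell in knockout lungs. The one that fell was Slfn1, a Schlafen gene of lymphocytes, by 1.01 in knockout (limma, adjusted p = 0.0136) and by 0.73 in wild type (adjusted p = 0.0111). The knockout call was lost without knockout saline replicate 1 or 3 or knockout bleomycin replicate 2. Slfn9 rose by 0.89 in wild type (adjusted p = 0.00113) and Slfn2 by 0.47 (adjusted p = 0.0228, lost without wild-type saline replicate 1 or 3 or wild-type bleomycin replicate 1). Among 12 interferon-stimulated genes measured of 15, none passed in knockout lungs (limma; 2 at an unadjusted p under 0.05) and 8 rose in wild-type lungs, with medians of 0.13 and 0.53 beside 0.01 and −0.04 over all genes.

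Il1b encodes interleukin-1 beta, an inflammatory cytokine of neutrophils, monocytes and macrophages. Il1b had values of 7.26, 7.13 and 8.0 in knockout bleomycin, 8.15, 7.84 and 8.68 in knockout saline, 7.06, 6.58 and 6.62 in wild-type bleomycin, and 6.78, 6.66 and 6.63 in wild-type saline. It differed from the calprotectin genes in that genotype, not treatment, separated its arrays: all 6 knockout arrays exceeded all 6 wild-type arrays. Knockout exceeded wild type by 1.53 ± 0.23 after saline and 0.71 ± 0.23 after bleomycin. In wild-type lungs bleomycin made a difference of 0.06 ± 0.23, and in knockout lungs of −0.76 ± 0.23, with overlapping arrays. That knockout difference passed if knockout bleomycin replicate 3 was left out. The genes outside the 10 most like it were Angpt2 (r = 0.914), Nr4a1 (0.876), AB124611 (0.872), Mefv (0.868) and Klf2 (0.860) over 12 arrays.

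Other genes of the IL-1 pathway were set beside Il1b. Of 14 listed and measured, 1 rose with bleomycin in knockout lungs and 7 rose in wild-type lungs, none passed between genotypes after saline (limma; 2 at an unadjusted p under 0.05), and 5 were lower in knockout than in wild type after bleomycin. Il1rn, the receptor antagonist, rose by 0.83 in knockout (adjusted p = 0.0105) and by 1.87 in wild type (adjusted p = 2.7e-06). Il1r1, the signalling receptor, rose by 0.99 in wild type (adjusted p = 1.05e-05), and Pycard, the inflammasome adaptor, by 0.96 (adjusted p = 0.000216). After bleomycin, knockout minus wild type was −0.80 for Il1rn (adjusted p = 0.00316), −0.64 for Il1r1 (adjusted p = 0.000814) and −0.67 for Pycard (adjusted p = 0.00587), opposite in sign to Il1b itself. With its probe sets averaged, Pycard was at −0.29 and did not pass.

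Cd177 encodes a GPI-anchored surface protein of neutrophils that is raised by G-CSF and inflammation. Cd177 had values of 4.90, 7.48 and 8.08 in knockout bleomycin, 6.24, 5.82 and 5.95 in knockout saline, 9.92, 7.76 and 8.62 in wild-type bleomycin, and 5.67, 5.13 and 5.14 in wild-type saline. All 3 wild-type bleomycin arrays and 2 of the 3 knockout bleomycin arrays lay above every saline array, while knockout bleomycin replicate 1, at 4.90, was the lowest of the 12. The difference was 3.46 ± 0.66 in wild type (11-fold higher) and 0.82 ± 0.66 in knockout. Without knockout bleomycin replicate 1 the knockout difference was 1.78, and the knockout minus wild-type difference after bleomycin was −0.99 in place of −1.95 ± 0.66, which passed only when knockout bleomycin replicate 3 or wild-type bleomycin replicate 2 was left out. Cd177 correlated negatively with S100a8 (r = −0.553 over 12 arrays). The genes outside the 10 most like it were Nudt4 (r = 0.948), Nrros (0.941), Bmp1 (0.941), Casp4 (0.940) and Ccr1 (0.940).

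Knockout bleomycin replicate 1 also had the lowest macrophage marker mean of its group: 9.01, against 9.29 and 9.46 on the other 2 arrays. Over 17 macrophage markers measured of 18, 10 rose with bleomycin in knockout lungs, and 10 rose and 1 fell in wild-type lungs, with medians of 0.69 and 1.41. Their mean lay at 9.01 to 9.46 in knockout bleomycin, 8.53 to 8.58 in knockout saline, 9.61 to 9.86 in wild-type bleomycin and 8.35 to 8.47 in wild-type saline. This is the group order of Cd177 too. The part of macrophages in the Cd177 values was not tested.

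Ngp and Ltf encode secondary granule proteins, neutrophilic granule protein and the iron-binding lactoferrin. Ngp had values of 5.10, 5.12 and 4.99 in knockout bleomycin, 5.16, 5.04 and 6.97 in knockout saline, 5.19, 4.77 and 4.49 in wild-type bleomycin, and 4.70, 5.19 and 5.48 in wild-type saline. Knockout saline replicate 3 stood alone, and without it the knockout minus wild-type difference after saline was −0.02 in place of 0.60. Camp, the cathelicidin of the same granule class, was 6.69 on that array and at most 4.79 on the other 11.

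A pair of erythroid genes, chosen after their values were seen, were set beside Ngp and Camp. Slc4a1, the red cell anion exchanger, was 5.84 on knockout saline replicate 3 and at most 4.43 elsewhere. Alas2, the first enzyme of haem synthesis in red cell precursors, was 8.14 on that array, a level also reached by wild-type bleomycin replicate 1 (8.14) and wild-type saline replicate 2 (8.26). The mean of 13 erythroid markers measured of 20 was 5.53 on knockout saline replicate 3, against 5.18 to 5.51 on the other 11 arrays. In the groups, 1 erythroid marker rose with bleomycin in wild type and none passed in knockout (limma; 0 at an unadjusted p under 0.05). The part of marrow or blood cells in the Ngp value was not tested.

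**Figure D2:**
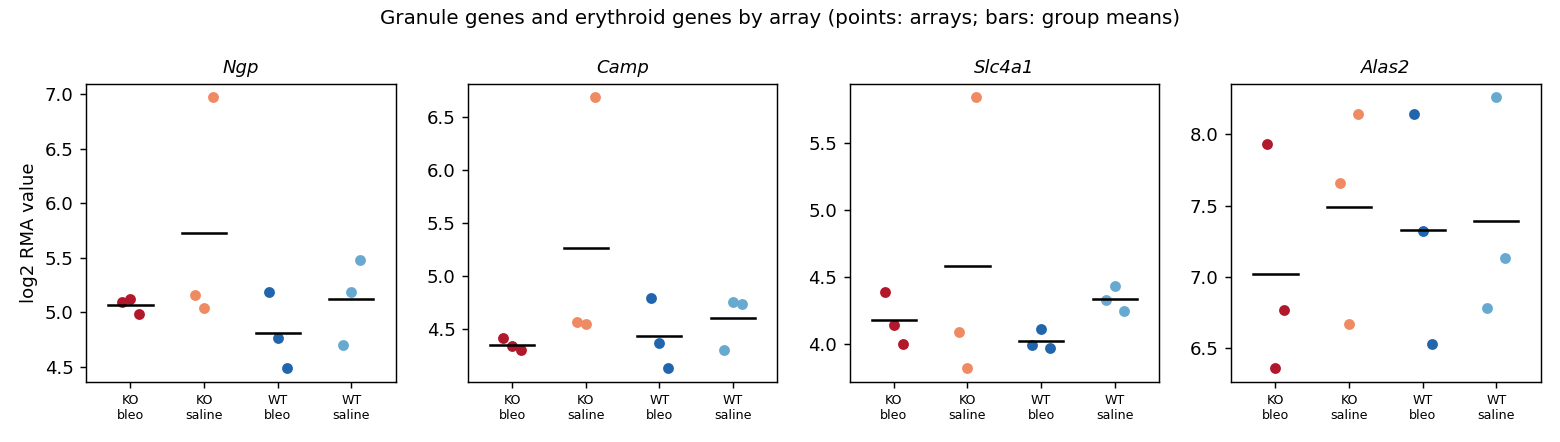
Log2 RMA value (y axis) of Ngp, Camp, Slc4a1 and Alas2 on the 12 arrays by group (x axis; points are arrays, bars are group means of 3). Knockout saline replicate 3 holds the top value of Ngp (6.97), Camp (6.69) and Slc4a1 (5.84), but not of Alas2.

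Ltf had values of 7.65, 9.65 and 10.65 in knockout bleomycin, 8.43, 10.65 and 8.53 in knockout saline, 9.07, 8.88 and 10.67 in wild-type bleomycin, and 9.46, 7.79 and 9.55 in wild-type saline. All 4 groups overlapped, with SDs of 1.53, 1.25, 0.98 and 0.99 in that order. No difference between groups exceeded its SE, from −0.23 between genotypes after bleomycin to 0.61 ± 0.78 for the wild-type response. Lactoferrin is also secreted by airway glands. In 4 of 4 groups the array with the most Ltf also had the highest mean of 12 airway secretory genes. In wild-type saline this was nearly a tie, with airway means of 11.11 and 11.10 on the arrays where Ltf was 9.55 and 9.46. The genes outside the 10 most like Ltf were Cep83 (r = 0.878), Calml3 (0.869), AU040972 (0.859), Aqp4 (0.851) and Ptprz1 (0.843). Of the airway genes, none passed with bleomycin in knockout (limma; 3 at an unadjusted p under 0.05) and 7 fell in wild type. The part of airway tissue in the Ltf values was not tested.

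Mpo encodes myeloperoxidase, the hallmark enzyme of primary granules, transcribed mainly in marrow precursors. Mpo had values of 4.14, 4.05 and 4.02 in knockout bleomycin, 3.93, 3.88 and 4.13 in knockout saline, 3.91, 3.68 and 3.77 in wild-type bleomycin, and 4.05, 4.08 and 3.92 in wild-type saline. Its probe set stood between the percentiles 22.8 and 31.2 of all probe sets of an array. The knockout minus wild-type difference after bleomycin passed the threshold at 0.28 ± 0.09, on a dim probe set. It did not pass when any 1 of the 6 bleomycin arrays but wild-type bleomycin replicate 1 was left out. Nor did it pass without wild-type saline replicate 1 or knockout saline replicate 1 or 2. The call was lost too with all probe sets tested, median scaling, repeated quantile normalization, and trend and robust. Only the arrays of the contrast and the replicate block each ended it as well. The neutrophil elastase gene Elane lay between 4.47 and 5.00. Of 6 precursor and primary granule genes measured of 8, none passed in any of the 5 contrasts by limma. At an unadjusted p under 0.05 there were 0 for the knockout response, 2 for the wild-type response, 2 for the difference of responses, 0 between genotypes after saline and 1 after bleomycin.

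The 10 genes were then counted in each comparison. With bleomycin in knockout lungs 0 of 10 passed as higher and 5 as lower (S100a8, S100a9, Csf3r, Stfa2l1 and Slfn4), against 3.26% of all genes called in either direction (1.98% higher and 1.29% lower). In wild-type lungs 1 passed as higher (Cd177) and 3 as lower (S100a8, S100a9 and Csf3r), against 27.7% of all genes (13.3% higher and 14.4% lower). The arrays of the 2 treatments did not overlap for 5 of the 10 in knockout (27.0% of all genes) and for 6 in wild type (40.0% of all genes). Since the genes were chosen with such results known, nothing is read from these counts. The median difference of the 10 was −0.91 in knockout and −0.39 in wild type, beside 0.01 and −0.04 over all genes.

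For the difference of responses, 1 of 10 passed (Stfa2l1), against 5.02% of all genes (2.03% higher and 3.0% lower in knockout). Cd177 had the largest value of the 10 in size, −2.64 ± 0.93, and did not pass. Between genotypes after bleomycin 4 passed as higher in knockout (S100a8, S100a9, Csf3r and Mpo), against 15.4% of all genes (7.52% higher and 7.89% lower). After saline 5 passed as higher in knockout (S100a8, S100a9, Il1b, Csf3r and Stfa2l1), against 0.489% of all genes (0.297% higher and 0.192% lower). The saline count was 0 without knockout saline replicate 3 and 2 without either knockout saline replicate 1 or wild-type saline replicate 3. Each of these 3 omissions ended the saline calls of S100a8, S100a9 and Csf3r. The S100a9 saline call was also lost without wild-type saline replicate 1 or 2 or wild-type bleomycin replicate 2. All probe sets tested, trend and robust, and only the arrays of the contrast ended it too, the last also that of Csf3r. The bleomycin count was 1 without knockout bleomycin replicate 1 and 2 without wild-type bleomycin replicate 3. The S100a8 call after bleomycin was lost without either of these arrays and also without knockout bleomycin replicate 3. That of Csf3r was lost without knockout bleomycin replicate 1. The arrays did not overlap between genotypes for 7 of the 10 after saline (16.7% of all genes) and for 5 after bleomycin (33.3% of all genes). The comparisons after saline and with bleomycin in knockout share the knockout saline arrays, so their values for a gene are not independent.

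**Figure D3:**
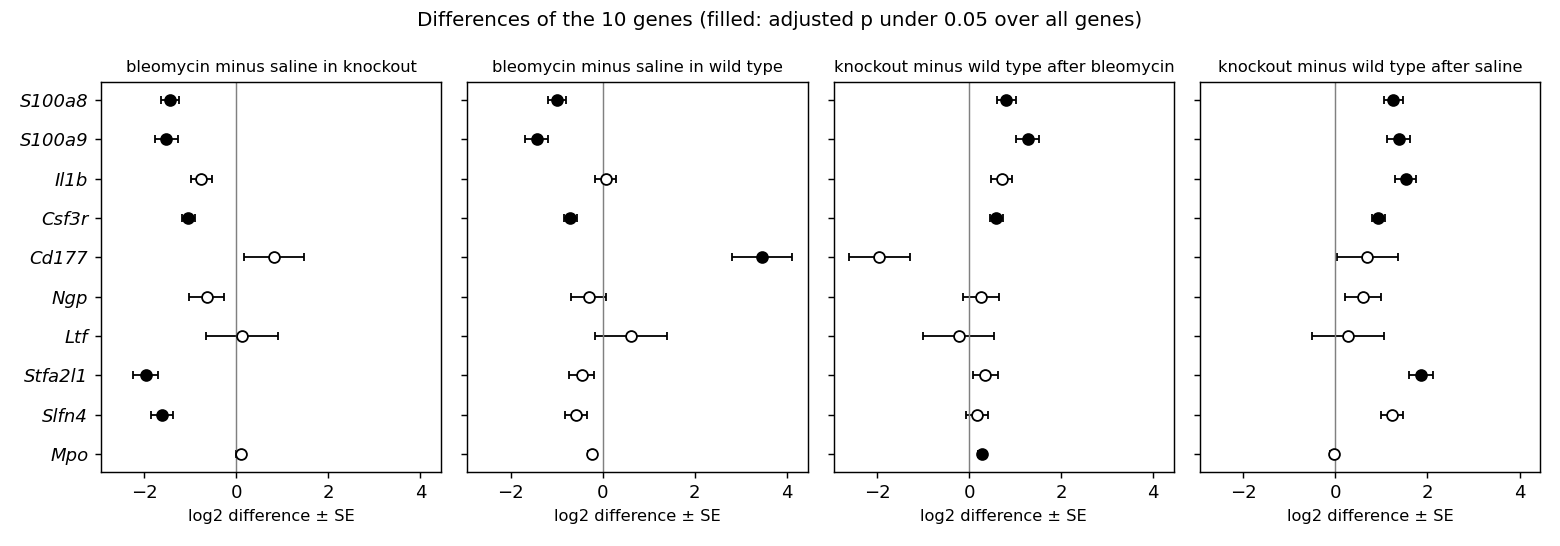
Log2 difference with its SE (x axis) of each of the 10 genes (y axis) for bleomycin minus saline in each genotype and knockout minus wild type after each treatment. Filled points passed an adjusted p of 0.05 over all 18194 genes; Cd177 at 3.46 in wild type lies opposite to S100a8, S100a9 and Csf3r.

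Among neutrophil genes outside the 10, some fell with bleomycin in wild type, as S100a8 was lower, and others rose, as Cd177 was higher. Of 11 secondary and tertiary granule genes measured of 12, 1 rose and 1 fell with bleomycin in knockout, and 2 rose and 1 fell in wild type. For this list and those below, 3.26% of all genes were called with bleomycin in knockout and 27.7% in wild type. Between genotypes it was 0.489% after saline and 15.4% after bleomycin. The wild-type count of this list is near the share of all genes. Mmp9, gelatinase B of tertiary granules, had values of 7.08, 6.43 and 6.68 in knockout bleomycin, 7.83, 7.54 and 7.83 in knockout saline, 6.18, 6.06 and 6.04 in wild-type bleomycin, and 6.98, 6.86 and 6.83 in wild-type saline. It fell by 1.0 ± 0.14 in knockout (adjusted p = 0.00237) and by 0.80 ± 0.14 in wild type (adjusted p = 0.000843), and was higher in knockout than in wild type by 0.84 after saline (adjusted p = 0.0163) and 0.64 after bleomycin (adjusted p = 0.00774). Mmp9 thus had the group order of S100a9.

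Mmp8, the neutrophil collagenase of secondary granules, went the other way in wild type. Mmp8 had values of 5.40, 5.67 and 5.66 in knockout bleomycin, 5.88, 5.63 and 6.12 in knockout saline, 6.51, 6.21 and 6.36 in wild-type bleomycin, and 5.25, 5.12 and 5.00 in wild-type saline. It rose by 1.24 ± 0.13 in wild type (adjusted p = 1.83e-05), and its difference of −0.30 in knockout did not pass (adjusted p = 0.234), with a tested difference of responses of −1.54 ± 0.18 (adjusted p = 0.0018). Knockout minus wild type was 0.75 after saline (adjusted p = 0.0208) and −0.79 after bleomycin (adjusted p = 0.0014). The saline calls of Mmp8 and Mmp9 were each lost without knockout saline replicate 1 or 3 or wild-type saline replicate 2 or 3.

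Lcn2, the siderophore-binding lipocalin, which injured lung epithelium also makes, rose in both genotypes, by 1.05 in knockout (adjusted p = 0.00982) and 1.35 in wild type (adjusted p = 0.000165). It had values of 10.13, 10.36 and 10.77 in knockout bleomycin, 9.21, 9.32 and 9.57 in knockout saline, 10.36, 10.82 and 11.07 in wild-type bleomycin and 9.21, 9.55 and 9.45 in wild-type saline. All bleomycin arrays exceeded all saline arrays, and genotypes overlapped.

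Of 21 mature neutrophil surface and effector genes measured of 26, 1 rose and 3 fell with bleomycin in knockout, and 8 rose and 5 fell in wild type. Between genotypes, 2 were higher in knockout after saline, and 5 were higher and 4 lower after bleomycin. The list medians were −0.05 in knockout and −0.07 in wild type for the response, and 0.38 after saline and 0.04 after bleomycin between genotypes, beside −0.02 and 0.03 for all genes between genotypes.

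Ifitm6, an interferon-induced transmembrane family gene of mouse myeloid cells, had values of 6.79, 6.30 and 6.45 in knockout bleomycin, 7.78, 7.76 and 7.94 in knockout saline, 5.76, 5.26 and 5.41 in wild-type bleomycin, and 6.65, 6.97 and 6.40 in wild-type saline. It fell by 1.31 in knockout (adjusted p = 0.00136) and by 1.20 in wild type (adjusted p = 0.000145), and was higher in knockout after saline by 1.15 (adjusted p = 0.00733) and after bleomycin by 1.04 (adjusted p = 0.00112). The saline call was lost without knockout saline replicate 3. Trem3, an activating receptor of mouse myeloid cells, fell by 0.78 in knockout (adjusted p = 0.0426) and by 0.60 in wild type (adjusted p = 0.0303). The knockout call of Trem3 was lost under most alternatives, among them leaving out any 1 knockout saline array or knockout bleomycin replicate 2 or 3, and its wild-type call if wild-type bleomycin replicate 2 or 3 or wild-type saline replicate 1 or 2 was left out. G0s2, a lipase inhibitor abundant in neutrophils and in fat, fell by 0.52 in knockout (adjusted p = 0.0465) and by 1.24 in wild type (adjusted p = 1.99e-05). Its knockout call was lost without any 1 knockout saline array, knockout bleomycin replicate 2 or 3 or wild-type saline replicate 1 or 2, with either other use of the probe sets, with each array set on its median and with the replicate block. Cxcr2, the chemokine receptor that brings neutrophils to CXC ligands, fell by 0.47 in wild type (adjusted p = 0.0226), which no longer passed if wild-type bleomycin replicate 2 or 3 or wild-type saline replicate 1 was left out.

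The C-type lectins Clec4d and Clec4e, pathogen sensors of neutrophils and macrophages, rose in wild-type lungs by 1.77 (adjusted p = 1.5e-05) and 1.25 (adjusted p = 0.000249). In knockout lungs their differences were 0.55 (adjusted p = 0.119) and −0.05, and the differences of responses passed at −1.22 (adjusted p = 0.0172, lost without knockout saline replicate 1) and −1.30 (adjusted p = 0.0145). After saline Clec4d was also higher in knockout by 1.25 (adjusted p = 0.00733), a call lost without knockout saline replicate 3. Ncf1, a subunit of the phagocyte NADPH oxidase, rose in both genotypes, by 0.46 in knockout (adjusted p = 0.0153, lost with the mean of all probe sets and without knockout saline replicate 2 or 3 or knockout bleomycin replicate 2 or 3) and 1.20 in wild type (adjusted p = 2.02e-06). Ly6g and Retnlg, both commonly used neutrophil markers, were not analysed here.

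**Figure D4:**
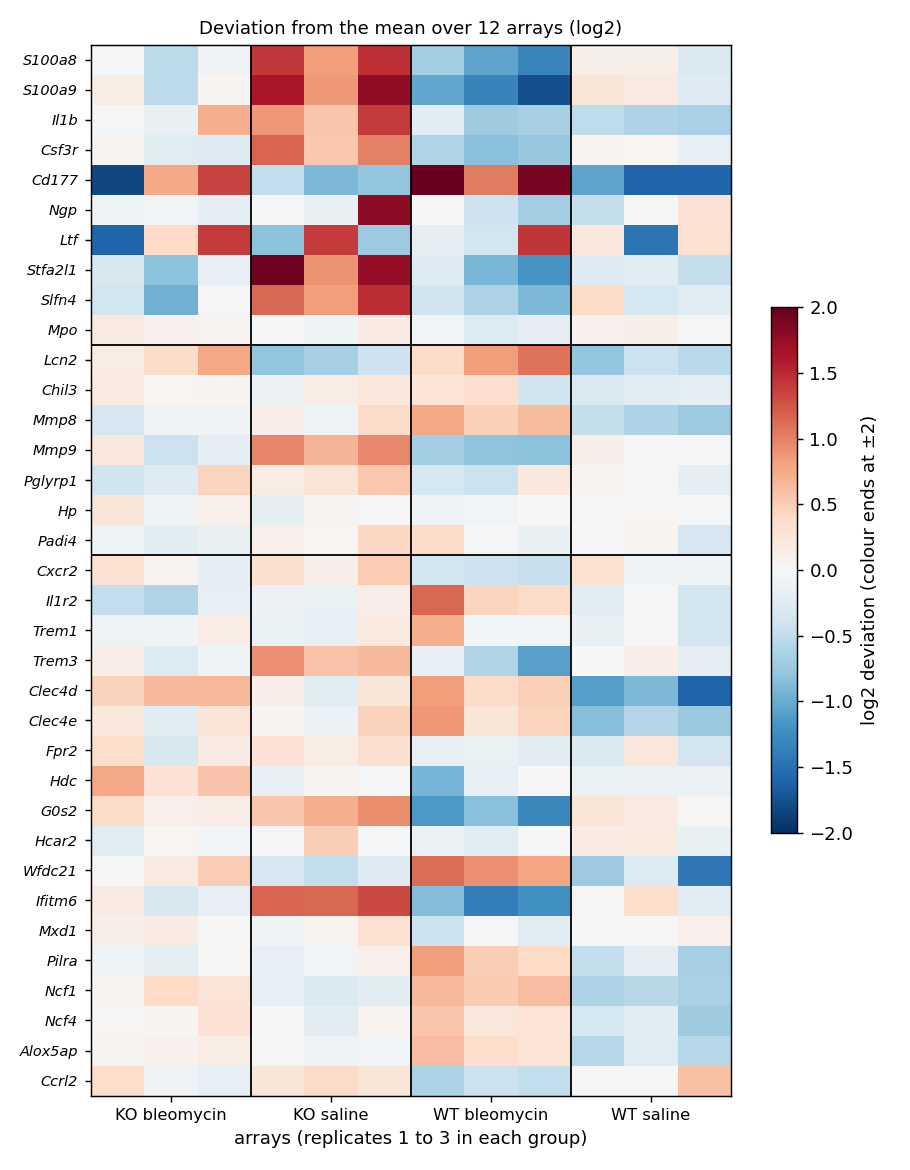
Log2 deviation of each gene from its mean over the 12 arrays (colour, ending at ± 2) for the 10 genes (top), 7 granule genes (middle) and 18 mature neutrophil genes (bottom) with a mean of at least 5 among the latter lists; columns are arrays by group. S100a8, S100a9, Csf3r, Mmp9 and Ifitm6 are red in knockout saline and blue in wild-type bleomycin, and Cd177, Mmp8 and Clec4d are red in wild-type bleomycin and blue in wild-type saline.

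The signals that recruit neutrophils were taken next. Of 19 chemoattractants, receptors and growth factors measured of 22, 1 fell with bleomycin in knockout, and 5 rose and 3 fell in wild type, and none passed between genotypes after saline (limma; 3 at an unadjusted p under 0.05). Ccl3, a chemokine of myeloid cells, rose by 1.12 in wild type (adjusted p = 0.000643), and Cxcl12, which retains neutrophils in marrow, by 0.75 (adjusted p = 5.06e-05). Another Cxcl12 probe set rose more, lying at 10.71 to 11.16 in wild-type bleomycin and 8.70 to 9.04 in wild-type saline. The remaining, dimmer one overlapped, at 5.10 to 6.15 and 4.94 to 5.44. Cxcl2, a CXCR2 ligand, rose by 0.80 (adjusted p = 0.0156) and was dim throughout, at 3.89 to 4.66 in wild-type bleomycin and 3.04 to 3.59 in wild-type saline arrays. Leaving out wild-type bleomycin replicate 1 or wild-type saline replicate 2 ended that call. Cxcl3, of the same list, rose by 0.71 in wild type (limma, adjusted p = 0.000538). It was dim too, at 3.63 to 4.08 in wild-type bleomycin and 2.98 to 3.17 in wild-type saline. After bleomycin Cxcl3 was lower in knockout than in wild type by 0.41 (adjusted p = 0.0288). That call was lost without knockout bleomycin replicate 1 or 2 or wild-type bleomycin replicate 3. Cxcl1 and Cxcl5, further CXCR2 ligands, differed by 0.34 (adjusted p = 0.0771) and 0.51 (adjusted p = 0.0506) in wild type and did not pass. A dimmer Cxcl1 probe set did not overlap, at 6.14, 5.35 and 5.71 in wild-type bleomycin and 5.00, 4.57 and 5.18 in wild-type saline. The remaining one overlapped, at 6.80 to 6.89 and 6.79 to 6.86. Ppbp, a CXCR2 ligand stored in platelets, fell by 0.99 in knockout (adjusted p = 0.0462) and by 1.42 in wild type (adjusted p = 0.000808). Its knockout call was lost under most alternatives, among them leaving out any 1 array other than knockout bleomycin replicate 1 and wild-type bleomycin replicate 1.

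The remaining S100 genes were set beside S100a8 and S100a9. Of 11 measured of 13, 1 rose with bleomycin in knockout, and 5 rose and 2 fell in wild type, and none passed between genotypes after saline (limma; 1 at an unadjusted p under 0.05). S100a14, an epithelial member, rose by 0.97 in knockout (adjusted p = 0.00699) and 2.23 in wild type (adjusted p = 1.76e-06). S100a4, of fibroblasts and macrophages, rose by 1.92 in wild type (adjusted p = 2.79e-05), with 0.19 in knockout.

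Markers of other blood cells were read on the same arrays. After saline, the mean of 12 monocyte markers measured of 14 was 8.65 to 8.81 in knockout and 8.21 to 8.39 in wild type, and 2 passed as higher in knockout, Nr4a1 by 1.46 (adjusted p = 0.0249) and Cx3cr1 by 0.52 (adjusted p = 0.0296). The Nr4a1 call was lost without knockout saline replicate 2 or 3 or wild-type saline replicate 2 or 3, and that of Cx3cr1 without any 1 of the 6 saline arrays. Both genes are expressed in the patrolling monocytes of the vessels. Of the 12 markers, the saline arrays did not overlap for 6 higher in knockout (7.28% of all genes) and 1 lower (9.45%). The lower one was Ace, at −0.11, which did not pass (limma, adjusted p = 0.727). The mean of 9 platelet markers measured of 11 was 7.17 to 7.51 in knockout saline and 6.86 to 7.15 in wild-type saline, with none past the threshold (limma; 5 at an unadjusted p under 0.05). The mean of 13 T, B and NK cell markers measured of 16 was 7.54 to 7.72 in knockout saline and 7.31 to 7.58 in wild-type saline, also with none past it (2 at an unadjusted p under 0.05). The part of these cells, or of blood left after perfusion, in the higher S100a8, S100a9 and Csf3r of knockout saline was not tested.

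The same lists were compared between bleomycin and saline. Of the platelet markers 3 fell in knockout and 7 in wild type, and of the lymphocyte markers 2 fell in knockout and 12 in wild type. Their means after bleomycin were 6.60 to 7.14 in knockout and 6.20 to 6.69 in wild type for platelets, and 7.17 to 7.42 in knockout and 6.18 to 6.71 in wild type for lymphocytes. Of the monocyte markers 2 fell in knockout, and 7 rose and 2 fell in wild type. Of 14 eosinophil, basophil and mast cell markers measured of 16, 1 rose in knockout and 3 fell in wild type. Of 12 lung identity markers none passed in knockout (limma; 2 at an unadjusted p under 0.05), and 1 rose and 5 fell in wild type. The part of these cells in the values of the 10 genes was not tested.

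**Figure D5:**
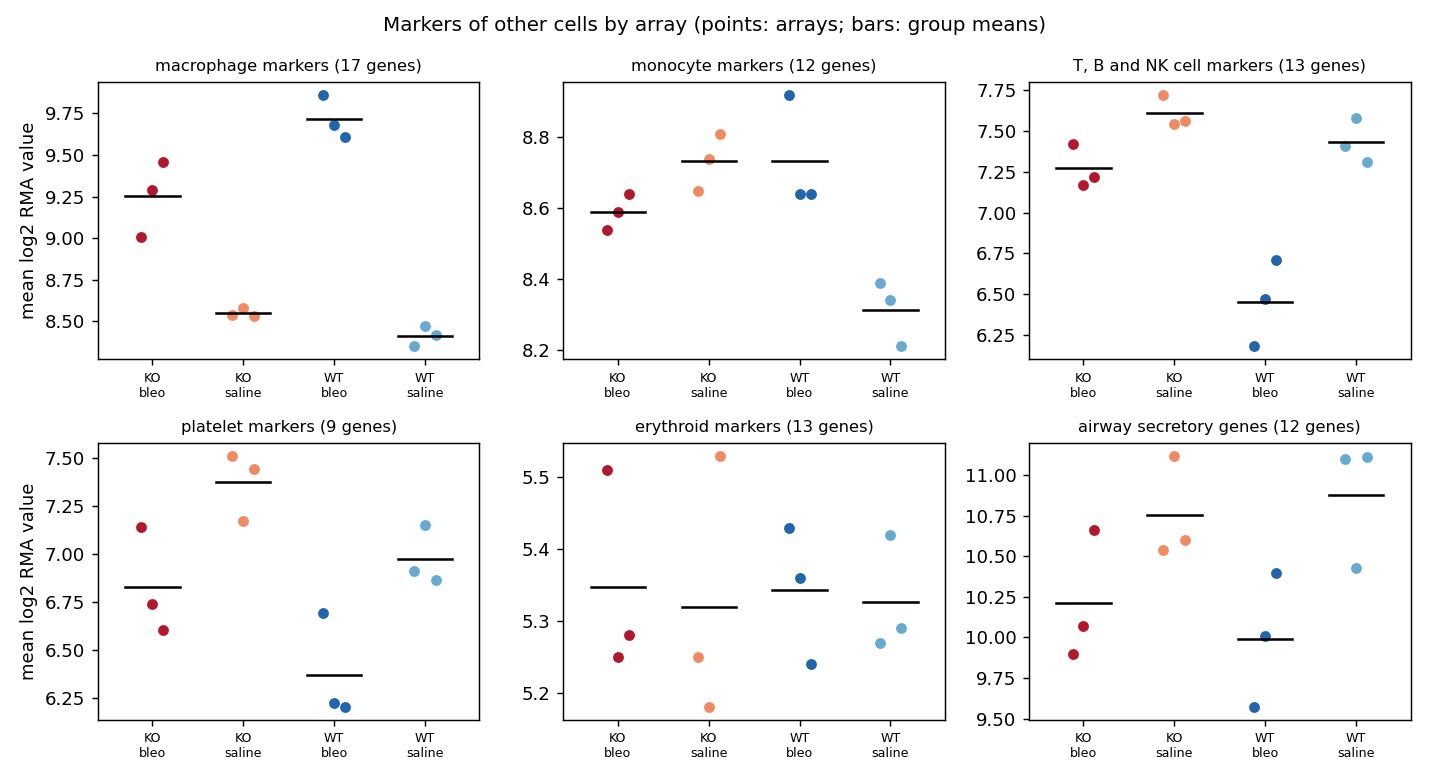
Mean log2 RMA value (y axis) of 6 marker lists of other cells on the 12 arrays by group (x axis; points are arrays, bars are group means of 3). Monocyte and platelet means are higher in knockout saline than in wild-type saline, and T, B and NK cell means are lowest in wild-type bleomycin, at 6.18 to 6.71.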

How the data were processed

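Each of the 12 samples was 1 Affymetrix array of whole-lung total RNA. The deposited table gives 1 log2 value per probe set, 45101 in all, made by the authors with RMA, per the submitters' processing notes, which name affy, RMA and limma without versions. RMA equalizes the distributions of arrays and compresses differences of dim genes. No detection calls and no genome build are given in the sources used here.

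From these values, the 34958 probe sets paired with 1 gene were kept (932 have several, 9211 none; 34754 matched a RefSeq gene table by Entrez identifier), and the brightest per gene was tested, 18194 genes. All 12 arrays entered 1 limma fit with a mean per group (limma 3.58.1, R 4.3.3, 8 residual and 4.86 prior degrees of freedom). The threshold for a call was 0.05 on the p adjusted by Benjamini-Hochberg across these genes. SDs are over 3 arrays and SEs from the fit. The number of arrays limits the precision. The procedure was tested on simulated data. Figures used matplotlib 3.10.9 in Python 3.11.15.

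The 10 genes and the 17 lists beside them (249 names, 205 measured) were chosen with earlier results of these data known. Named were the 10 genes, 13 fixed neutrophil genes where measured, and up to 4 genes with the smallest p per list and comparison. Lists are described by counts and medians. Their counts are to be read beside the shares of all genes called. These were 3.26% for the knockout response, 27.7% for the wild-type response and 5.02% for the difference of responses. Between genotypes they were 0.489% after saline and 15.4% after bleomycin. Alternatives were the mean of all probe sets, all probe sets as features, a filter at a mean of 5, 2 normalizations, eBayes with trend and robust, only the arrays of a contrast, array weights, a replicate block and leaving out each array. Samples were grouped by their titles.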

Additional observations from a re-analysis of the deposited data

Results flagged for a closer look

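Among the 10 genes and the genes named from the lists, the responses of the 2 genotypes to bleomycin differed for the following. The limma test of the difference was used (knockout response minus wild-type response, log2, adjusted p under 0.05), which 5.02% of all genes passed. Among the 10 genes this held for Stfa2l1 (−1.51), chosen with that pattern known. Among granule and mature neutrophil genes the difference was −1.54 for Mmp8, −1.22 for Clec4d, −1.30 for Clec4e, −0.74 for Ncf1, −0.74 for Alox5ap, −1.07 for Pilra and 0.71 for G0s2. Among IL-1 pathway genes it was −1.05 for Il1rn, −1.24 for Il1r2, −0.82 for Il1r1, −0.77 for Pycard and −0.70 for Casp4. It was −0.77 for Cxcl12, −1.26 for S100a14, −1.73 for S100a4, 1.63 for S100g and −0.54 for the monocyte gene Cx3cr1. Further list genes passed without being named. In all, 6 of 14 IL-1 pathway genes, 5 of 12 monocyte markers and 4 of 17 macrophage markers passed as lower. Of 13 T, B and NK cell markers, 3 passed as higher. For Mpo every knockout bleomycin array lay above the saline mean of its genotype and every wild-type bleomycin array below it. Its difference of responses (0.32 ± 0.13, SE) did not pass the test.

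Several of these calls were lost under alternatives. That of G0s2 was lost with all probe sets tested, with the replicate block and without any 1 of 9 arrays, that of Casp4 with all probe sets, with repeated quantile normalization, with the block and without any 1 of 10 arrays, and that of Pycard with either other use of the probe sets, with median scaling, with the block and without any 1 of 8 arrays. The call of Cx3cr1 was lost with either other use of the probe sets, with repeated quantile normalization and without any 1 of 9 arrays, and that of Stfa2l1 likewise without any 1 of 9 arrays, with either other use of the probe sets and with trend and robust. With the mean of all probe sets Pycard was at −0.35 and Il1rn at −0.62, and neither passed. The calls of Alox5ap and Clec4d were lost without knockout saline replicate 1, that of Il1r2 without knockout bleomycin replicate 1, and that of S100g if either one of these arrays was left out.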

How the results depend on the processing

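Among the 10 genes and the other named genes, no value that was called changed sign under any alternative. Values that were not called did: Ngp between genotypes after saline was at −0.02 without knockout saline replicate 3, against 0.60. Of 4942 recomputed values of single genes, 5 values of the 10 genes moved by more than 1 SD; outside the 10 genes, 173 lost the call and 39 gained it. Genes called for the knockout response numbered 376 with all probe sets and 1286 with array weights, against 594, and 211 to 796 when 1 array was left out. For the difference of responses they numbered 550 with all probe sets, 1888 with array weights and 601 with the replicate block, against 914, and 380 to 1052 without 1 array. Between genotypes after saline they numbered 54 with all probe sets, 37 with only the arrays of the contrast and 1105 with array weights, against 89, and 24 to 112 without 1 array. Between genotypes after bleomycin they numbered 1653 to 3138 without 1 array, against 2804, and for the wild-type response 4052 to 5004, against 5045. Of the 10 genes, those called numbered 7 with array weights for the wild-type response, against 4. For the difference of responses they numbered 0 with the mean of all probe sets, with all probe sets and with trend and robust, against 1, and 0 to 2 without 1 array. With genes of a mean under 5 left out, 8 of the 10 remained and 0 were called. That filter takes out Stfa2l1 itself, so its call was not retested there. Between genotypes after saline they numbered 3 with only the arrays of the contrast, against 5, and 0 to 6 without 1 array. After bleomycin they numbered 1 to 5 without 1 array, against 4, with 1 left without knockout bleomycin replicate 1 and 2 without wild-type bleomycin replicate 3. The causes were not tested.

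Same-numbered replicates did not deviate together (correlations of −0.297 to 0.203), so the replicate block pairs only numbers. Of the 10 genes, with it the saline difference of Slfn4 and the bleomycin difference of Il1b between genotypes passed and that of Mpo after bleomycin did not. Dim genes (Mpo, Stfa2l1 outside knockout saline, Csf3) lie where RMA compresses differences.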
